A study of Mus musculus with 60 samples.

Results

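The keratin genes encode the intermediate filament proteins of epithelia, hair and nail, and their loci were examined here as genes not expected to be active in ganglia. Members were the protein-coding genes of the RefSeq table for the mouse assembly GRCm38.p6 with a symbol of Krt followed by a number, which leaves out the keratin-associated protein genes (Krtap). The rule used no measured value, and it found 53 genes of the 21887 protein-coding genes. The type I genes form a cluster of 27 members on chromosome 11 (99232761 to 100269951), interrupted by a block of 23 Krtap genes. The type II genes and Krt18 form a cluster of 26 members on chromosome 15 (101348315 to 102032026).

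Keratin filaments are obligate pairs of a type I and a type II protein, and each epithelium uses characteristic pairs. Krt5 with Krt14 marks the basal epidermis and Krt1 with Krt10 its upper layers, Krt8 with Krt18 is found in simple epithelia, and Krt6a, Krt6b, Krt16 and Krt17 are induced in injured skin. The neurons and glia of a ganglion build other intermediate filaments, among them the neurofilaments, peripherin, vimentin and Gfap. Acetylation of histone H3 at lysine 9 (H3K9ac) or 27 (H3K27ac) is typical of active promoters and enhancers. Trimethylation at lysine 27 (H3K27me3), laid down by Polycomb complexes, is typical of repressed developmental genes, and ATAC-seq marks DNA that a transposase can reach.

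The data came from the L4 to L6 dorsal root ganglia that serve the sciatic nerve, taken from C57BL/6 mice aged 6 to 8 weeks at 24 hours after surgery. The 4 surgeries were sciatic nerve axotomy (SNA), sham surgery on that nerve (Sham), dorsal column axotomy of the spinal cord (DCA) and laminectomy (Lam), and the latter serves as the control of DCA. Each mark and surgery had 2 immunoprecipitated samples and 2 inputs of 10 pooled mice each, while ATAC had 3 samples per surgery, from 1 mouse apiece, which makes 60 samples. The deposited files hold 16 peak lists, 1 per assay and surgery, made from pooled replicates. No value below therefore has a replicate error, and no test between surgeries was possible. Intervals are 95% Wilson intervals, which cover counting error only, and the read depth is unknown. Whole ganglia hold neurons, glia and other cells, and a difference in the number of cells of a type cannot be told apart from a difference within each cell.

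The lists held 43803 to 89647 acetylation peaks, 90011 to 154055 H3K27me3 peaks and 153556 to 174605 ATAC peaks. A gene's window was its body and 10 kb on each side. Keratin genes lie close together, so neighbouring windows share peaks, and distinct peaks were counted over their union of 1.07 Mb. Coordinates are those of the build mm10 named in the submitters' processing notes, counted from 1.

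RefSeq promoter windows, from 250 bases before to 50 bases after a start, were at hand for 36 of the 53 genes, with 37 windows because Krt13 has a pair. Of them, 6 are shown without the bases after the start. They are 5 of the windows that an ATAC peak overlapped in 2 or more lists, and Krt31 as a window without one. Windows of Krt24, Krt32, Krt13, Krt72, Krt76, Krt79 and Krt78 also had a peak in 2 lists and are not shown. An ATAC peak overlapped the windows of Krt7, Krt9 and Krt23 in all 4 lists and no other keratin window in more than 2. Krt18 and Krt10 had one in 2 lists, and the hair gene Krt31 had none. The sequences run 5′ to 3′ along the gene, and capitals mark motif matches on either strand. The motif searched for the TATA box, which places the start of many tightly controlled genes, was TATAAA. For AP-1, the Fos and Jun dimer, it was TGANTCA. For the GC box, which Sp1 family factors recognise, it was GGGCGG. For AP-2, a factor family active in epidermis, the motif was GCCNNNGGC. The positions are chr15:101412153-101412402 for Krt7 (plus strand), chr11:100193247-100193496 for Krt9, chr11:99493121-99493370 for Krt23, chr15:102027966-102028215 for Krt18 (plus strand), chr11:99389365-99389614 for Krt10 and chr11:100050552-100050801 for Krt31, with the genes on chromosome 11 on the minus strand.
Krt7: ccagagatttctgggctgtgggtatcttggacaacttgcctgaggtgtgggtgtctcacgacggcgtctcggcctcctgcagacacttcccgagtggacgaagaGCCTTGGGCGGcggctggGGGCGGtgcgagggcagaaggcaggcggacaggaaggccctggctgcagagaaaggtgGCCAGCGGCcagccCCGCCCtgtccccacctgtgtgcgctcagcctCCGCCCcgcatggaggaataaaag
Krt23: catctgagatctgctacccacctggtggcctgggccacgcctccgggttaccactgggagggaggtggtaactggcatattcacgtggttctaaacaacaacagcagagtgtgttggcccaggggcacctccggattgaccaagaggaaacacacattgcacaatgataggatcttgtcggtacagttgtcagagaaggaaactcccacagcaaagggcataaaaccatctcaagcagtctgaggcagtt
Krt9: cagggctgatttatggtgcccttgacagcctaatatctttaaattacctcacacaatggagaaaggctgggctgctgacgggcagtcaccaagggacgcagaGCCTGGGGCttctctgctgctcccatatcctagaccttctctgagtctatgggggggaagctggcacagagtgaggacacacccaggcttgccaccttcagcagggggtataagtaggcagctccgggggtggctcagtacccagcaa
Krt18: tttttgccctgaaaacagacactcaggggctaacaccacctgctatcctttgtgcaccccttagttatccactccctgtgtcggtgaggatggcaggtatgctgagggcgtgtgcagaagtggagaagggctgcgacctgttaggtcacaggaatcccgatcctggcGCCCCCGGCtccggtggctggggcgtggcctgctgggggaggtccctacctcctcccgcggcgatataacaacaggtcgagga
Krt10: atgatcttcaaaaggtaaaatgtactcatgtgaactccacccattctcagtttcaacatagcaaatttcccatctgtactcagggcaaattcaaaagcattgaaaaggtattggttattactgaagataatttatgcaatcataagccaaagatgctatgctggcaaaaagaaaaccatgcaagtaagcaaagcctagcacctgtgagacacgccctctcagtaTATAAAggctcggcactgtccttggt
Krt31: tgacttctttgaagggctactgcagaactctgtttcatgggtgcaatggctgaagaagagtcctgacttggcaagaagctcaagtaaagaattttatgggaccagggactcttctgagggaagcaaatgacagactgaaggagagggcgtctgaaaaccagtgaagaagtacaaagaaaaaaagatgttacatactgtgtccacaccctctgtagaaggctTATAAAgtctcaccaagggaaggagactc

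Krt7 alone among the 6 held GC boxes, with 4 matches, and Krt10 and Krt31 each held 1 TATA box. Over all 37 keratin windows, 51.4% held TATAAA against 12.6% of 21263 windows of protein-coding genes, and 5.41% held a GC box against 46.2%. The shares were alike for AP-1 (5.41% against 6.99%) and AP-2 (18.9% against 19.9%). A TATAAA match on one strand can overlap one on the other, as in Krt8. Keratin windows had a median of 5 CpG dinucleotides (2 to 21) against 13 in all windows. Krt7 (21) and Krt18 (17), both genes of simple epithelia, had the most. A match describes the letters and not a bound factor.

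ATAC and acetylation peaks over these start windows were few, while H3K27me3 was more frequent there than over all windows. An ATAC peak overlapped 6 of 37 windows after Sham, 11 after SNA, 12 after Lam and 8 after DCA, against 61.0%, 63.8%, 61.4% and 62.8% of all windows. No keratin window had an ATAC peak in all 4 lists apart from the 3 named, which is 8.11% of the windows against 54.3% of all windows. At Krt9, a gene of palm and sole epidermis, the ATAC peak had a deposited fold of 2.73 after Sham, 2.41 after SNA, 2.58 after Lam and 2.32 after DCA. Its percentile by −log10 p within its own list was 90.5, 78.5, 89.8 and 80.0. At Krt7 the folds were 2.01, 1.86, 1.87 and 1.73, with percentiles of 17.7 to 55.9. H3K27me3 peaks overlapped 21 windows after Sham, 10 after SNA, 27 after Lam and 3 after DCA, against 12.9%, 7.06%, 13.4% and 2.54% of all windows. Of the 36 genes with a start window, only Krt23 had an acetylation peak over it, in 4 of the 8 acetylation lists. The other 17 genes could not be examined in this way. Krt80 is one of them, and it had a peak within 1 kb of a gene end in 4 H3K27ac and 3 H3K9ac lists.

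Histone acetylation was present in few keratin windows. At least 1 H3K9ac peak lay in the window of 13 of 53 keratin genes in Sham, where 63.4% of all protein-coding genes had one. The number was 9 in SNA (65.4% of all genes), 6 in Lam (63.4%) and 16 in DCA (69.8%). For H3K27ac it was 8 after Sham (61.0%), 7 after SNA (63.9%), 7 after Lam (64.8%) and 8 after DCA (60.5%). Genes within the length range of the keratin genes, 2812 to 50624 bp, had H3K9ac window peaks in 68.3%, 70.2%, 67.8% and 74.5% in the same order, so the keratin shares were also low beside genes of like length. Across both marks, 33 keratin genes had no acetylation peak in any of the 8 lists, against 25.9% of all genes. In contrast 5 genes had one in all 8 lists (Krt222, Krt23, Krt40, Krt80 and Krt78), against 49.4% of all genes. Krt78 is among them only through its RefSeq extent: with the gene ending at the start that its promoter window gives, its window held 0 acetylation peaks and the number was 4. Krt222, still counted there, reached all 8 lists only through peaks at an end of Smarce1, 1232 bp outside Krt222. They were its only window peaks for H3K27ac, and for H3K9ac in Sham and SNA.

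**Figure D1:**
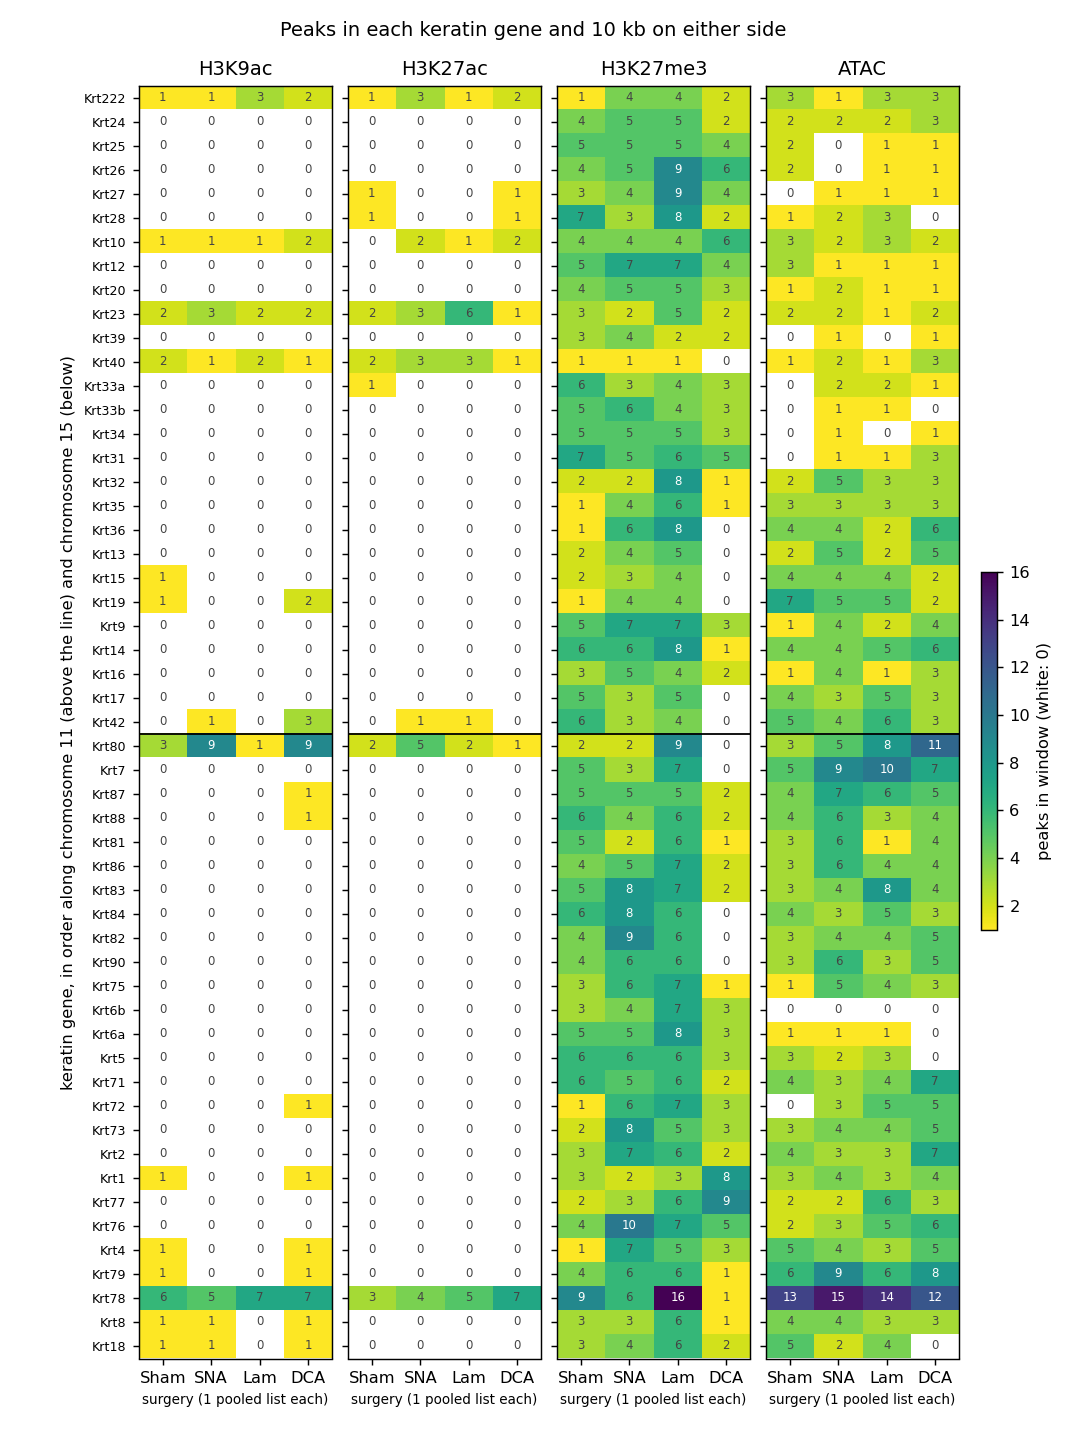
Number of peaks in each keratin gene window (rows, in chromosomal order) in the 16 pooled lists (columns, by assay and surgery); white cells are 0 and overlapping windows count shared peaks more than once. Acetylation is limited to a few rows, with 33 genes white in all 8 lists, while H3K27me3 fills all 53 rows in Sham, SNA and Lam.

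Near gene ends the shares were lower still. An H3K9ac peak lay within 1 kb of either end of 6 keratin genes after Sham (49.1% of all genes), 3 after SNA (50.6%), 4 after Lam (49.7%) and 7 after DCA (59.3%). For H3K27ac there were 1, 2, 2 and 2 genes, against 40.3%, 50.9%, 50.9% and 42.7% of all genes. In all, 9 keratin genes had an acetylation peak near an end in any list, against 63.0% of all genes.

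**Figure D2:**
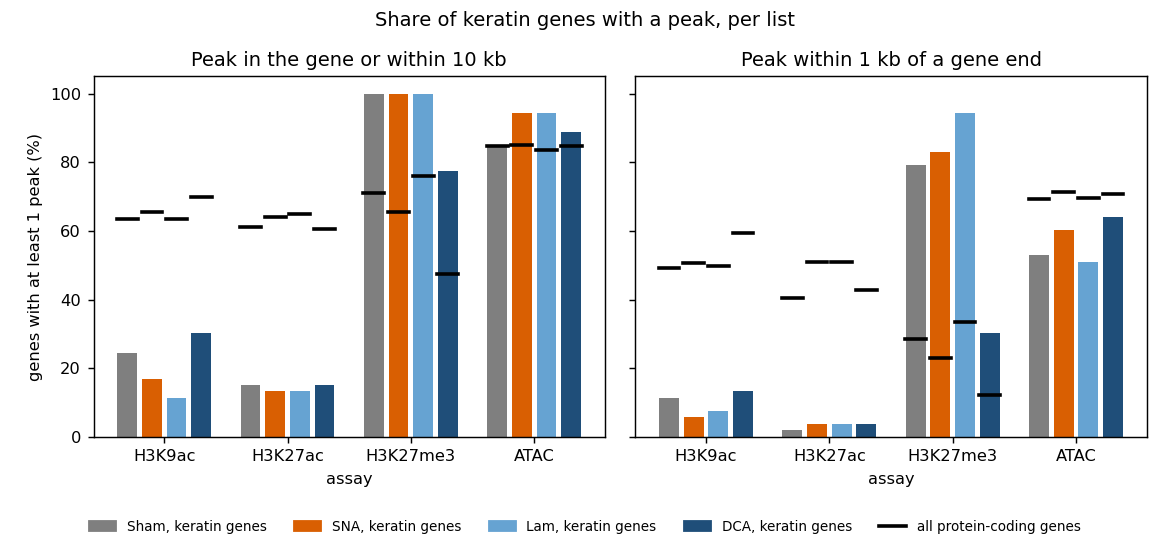
Share of the 53 keratin genes (bars, coloured by surgery) and of all protein-coding genes (black lines) with at least 1 peak in the window (left) or within 1 kb of a gene end (right), in percent. Bars lie far under the lines for both acetylation marks and above them for H3K27me3. ATAC bars lie near or above the lines for windows and below them at gene ends.

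The acetylation peaks were gathered in a handful of places. Acetylation peaks of the 8 lists at most 2 kb apart were joined into 24 stretches, and 5 stretches present in all 8 lists held 117 of the 157 peaks (74.5%). The largest lay at chr15:101971891-101985833, inside the 50624-bp RefSeq extent of Krt78, a type II keratin gene, and 17604 bp upstream of the start its promoter window gives. It held 41 peaks and ended 10791 bp from the upper end of that extent, which lies beside Krt8. With Krt78 ending at that start, the stretch lay outside all keratin windows, and 116 acetylation peaks were left. H3K27ac had its strongest keratin peak there after Sham, with a fold of 17.4 (percentile 99.2), after SNA with 9.93 (99.7), after Lam with 9.72 (98.3) and after DCA with 13.3 (98.8). The strongest H3K9ac peak there, by −log10 p as for H3K27ac, had a fold of 3.90 after Sham, 6.83 after SNA, 3.84 after Lam and 6.29 after DCA. The strongest ATAC peak of all keratin windows also lay there in each list, at percentiles of 95.6, 96.4, 97.3 and 97.5. The stretch was thus marked after every surgery, including both control surgeries.

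Another long stretch crossed the upper end of Krt80 (chr15:101365602-101377349) and held 31 peaks. Krt80, whose product is found in most epithelia, had 3 H3K9ac window peaks after Sham, 9 after SNA, 1 after Lam and 9 after DCA. It showed the largest gain of H3K9ac peaks of any keratin gene after both injuries. The whole H3K9ac lists were also longer there, with 74652 peaks in SNA against 50332 in Sham and 89647 in DCA against 50667 in Lam. H3K27ac at Krt80 numbered 2, 5, 2 and 1 in the same order, so of the acetylation marks only H3K9ac had the higher number in DCA. The H3K9ac peaks of the stretch were of middling strength, at most at percentile 87.1 after Sham, 78.4 after SNA, 23.4 after Lam and 73.8 after DCA.

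The type I cluster had the other 3 stretches. One at chr11:99487319-99493323 ran from the body of Krt23, a keratin gene of simple epithelia, across its start. Krt23 had 2 H3K27ac window peaks after Sham, 3 after SNA, 6 after Lam and 1 after DCA, the largest loss in DCA against Lam. Another lay inside Krt40 (chr11:99538400-99541456), with 14 peaks. The third (chr11:99229214-99231529) covered an end of Smarce1, a chromatin remodelling subunit, 1232 bp from Krt222, and it supplied the strongest H3K9ac keratin-window peak in Sham (fold 5.22), Lam (5.40) and DCA (8.84). In 7 of 8 lists a stretch lay in the 3′ part of Krt10 (chr11:99385310-99387133). Its highest H3K9ac folds were 5.06 after Sham, 6.77 after SNA, 5.03 after Lam and 7.27 after DCA, and H3K27ac was without a peak after Sham.

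**Figure D3:**
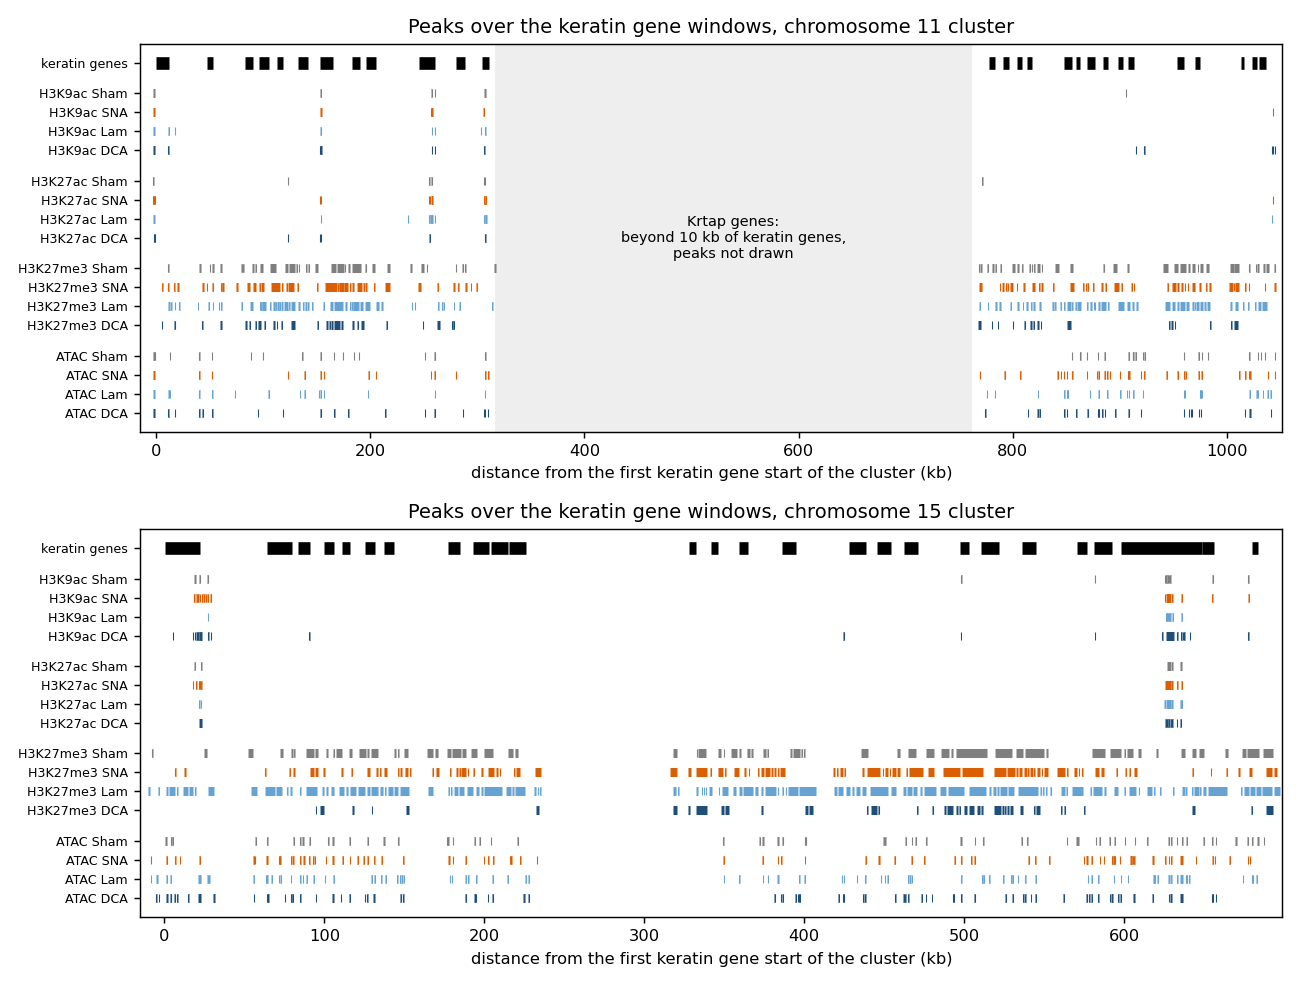
Peaks of the 16 lists over the keratin windows of the chromosome 11 cluster (top) and the chromosome 15 cluster (bottom), as distance from the first keratin gene start in kb; colours are surgeries, black boxes are genes, narrow peaks are drawn with a minimum width and peaks outside the windows are not drawn. Acetylation recurs in the same few columns across surgeries, near 630 kb on chromosome 15 among them, while H3K27me3 is spread over both clusters.

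Members were sorted by the epithelium in which they are best known. None of the injured-epithelium genes Krt6a, Krt6b, Krt16 and Krt17 had an acetylation window peak in any of the 8 lists. Of all genes, 25.9% had none. Krt6b, alone of the 53 genes, had no ATAC window peak in any list, against 10.4% of all genes. Krt6a had 1, 1, 1 and 0 in Sham, SNA, Lam and DCA. Krt16 had 1, 4, 1 and 3 ATAC peaks and Krt17 had 4, 3, 5 and 3. Of the epidermal genes, Krt5 and Krt14 had no acetylation peak, and Krt1 had 1 H3K9ac peak in Sham and 1 in DCA. Krt10, also epidermal, went the other way, with acetylation in 7 of the 8 lists and H3K9ac near a gene end after every surgery. The simple epithelial genes Krt7, Krt8, Krt18 and Krt19 had no H3K27ac window peak in any list, where 29.3% of all genes had none. Krt8 and Krt18 had 1 H3K9ac peak each in Sham, SNA and DCA. Krt19 had 1 in Sham and 2 in DCA, and Krt7 had none. Krt18 had 5 ATAC peaks after Sham, 2 after SNA, 4 after Lam and 0 after DCA, the largest loss in both injury comparisons, shared in DCA against Lam with Krt83. Of 13 hair keratin genes, at most 1 had a window peak in any list of either acetylation mark, and Krt31 and Krt86 had none. Of all genes, 63.4% to 69.8% had one per H3K9ac list and 60.5% to 64.8% per H3K27ac list.

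H3K27me3 lay in more keratin windows than any other signal in Sham, SNA and Lam, while in DCA ATAC peaks lay in more. All 53 genes had a window peak in Sham (71.0% of all genes), SNA (65.5%) and Lam (76.0%), and 41 in DCA (47.5%). Near gene ends there were 42 genes after Sham (28.6% of all genes), 44 after SNA (23.0%), 50 after Lam (33.4%) and 16 after DCA (12.3%). The peaks covered 31.7%, 29.3%, 45.9% and 11.9% of the keratin windows, against 6.91%, 6.06%, 7.91% and 3.05% of the windows of all protein-coding genes. These peaks were shallow: their median deposited fold was 1.08 after Sham, 1.15 after SNA, 1.18 after Lam and 1.17 after DCA, and the highest was 2.11. A q of at most 0.05 was reached by 2 peaks in Sham and by 0 in each of the other lists, as it was by 1.31% of the whole Sham list. The strongest, a peak of fold 2.11 in Sham, lay at chr11:100016250-100017789, 38 bp from an end of Krt33a, a hair keratin gene.

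Cover differed along the clusters. In Sham it was 26.3% of the chromosome 11 windows and 36.7% of the chromosome 15 windows, and in Lam 32.7% and 58.1%. The chromosome 15 cluster has a gap between Krt75 and Krt6b, and the windows were divided there after the values were seen. From Krt80 to Krt75, 11 genes, cover was 29.5% after Sham, 20.1% after SNA, 54.9% after Lam and 3.72% after DCA. From Krt6b to Krt18, 15 genes, it was 41.1%, 39.1%, 60.1% and 17.2%. The highest DCA counts were thus in the latter group, with 8 window peaks at Krt1 and 9 at Krt77, against 3 and 6 in Lam. At Krt78 the number was 9 after Sham, 6 after SNA, 16 after Lam and 1 after DCA. Its window takes in the whole RefSeq extent of 50624 bp, against a median keratin gene length of 7070 bp.

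**Figure D4:**
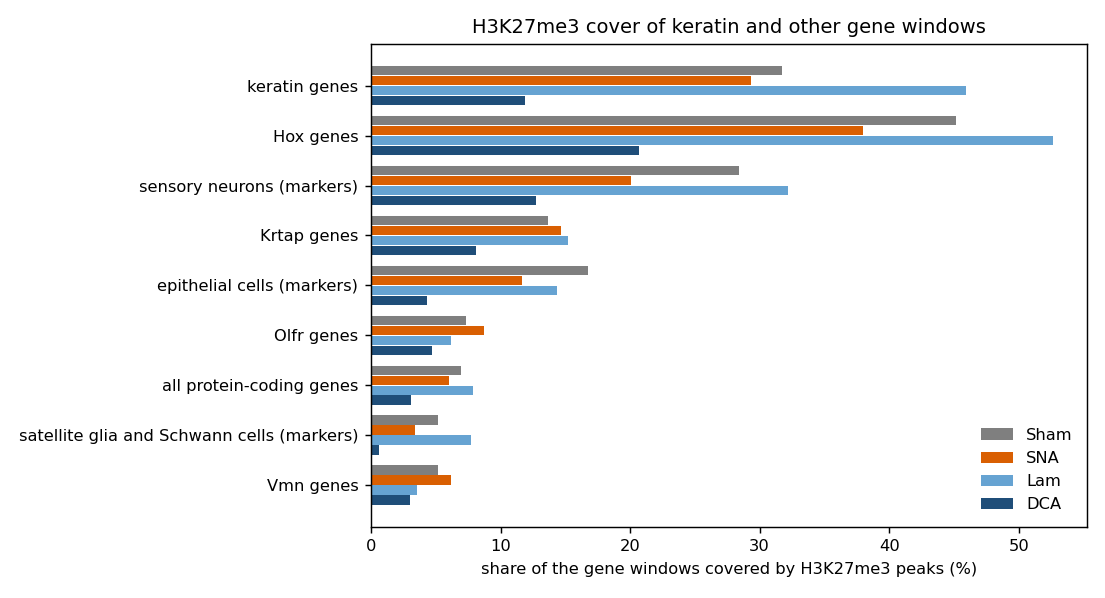
Share of the windows of each gene group covered by H3K27me3 peaks, in percent, for the 4 surgeries (bars). Keratin windows reach 45.9% in Lam and 11.9% in DCA, below the Hox genes in each list.

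The share of keratin genes with an ATAC window peak was near or above that of all genes. At gene ends the share was lower, and the peaks were weaker than the middle of their lists. At least 1 ATAC peak lay in the window of 45 genes after Sham (84.8% of all genes), 50 after SNA (85.0%), 50 after Lam (83.6%) and 47 after DCA (84.7%). At gene ends the numbers were 28 (69.4%), 32 (71.2%), 27 (69.5%) and 34 (70.7%). The median percentile of the keratin peaks by −log10 p in their own list was 42.7, 43.3, 41.8 and 40.0, and 6.0%, 2.44%, 3.17% and 4.07% of them were among the strongest 10% of the list. Between 12.7% and 17.0% of the keratin ATAC peaks overlapped a peak in all 4 lists, against 21.0% to 24.0% of all ATAC peaks. Peak density over the chromosome 15 cluster was 1.84 to 2.42 times that of the genome, and over the chromosome 11 cluster 0.863 to 1.01 times. The Krtap block inside the latter had 0.465 to 0.679 times the genome's density and no H3K9ac peak in any list. The part with 12 keratin genes before that block had 0.737 to 0.939 times the genome's ATAC density. The part with 15 keratin genes after it had 1.61 to 2.03 times, so a density above the genome's was not limited to chromosome 15. In peaks per Mb this part had 90.6 after Sham, 130 after SNA, 97.8 after Lam and 101 after DCA. The chromosome 15 cluster had 104, 129, 140 and 132. Windows of all protein-coding genes had 81.4, 95.1, 88.2 and 88.7, against 56.4, 64.1, 58.1 and 60.4 over the genome. Gene windows in general thus also lay above the genome. ATAC peaks overlapped an H3K27me3 peak of the same surgery in 49.0% after Sham, 28.5% after SNA, 71.4% after Lam and 8.94% after DCA, against 15.8%, 13.1%, 23.1% and 5.37% of the whole lists. The order of these shares over the surgeries was that of the H3K27me3 cover of the windows.

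**Figure D5:**
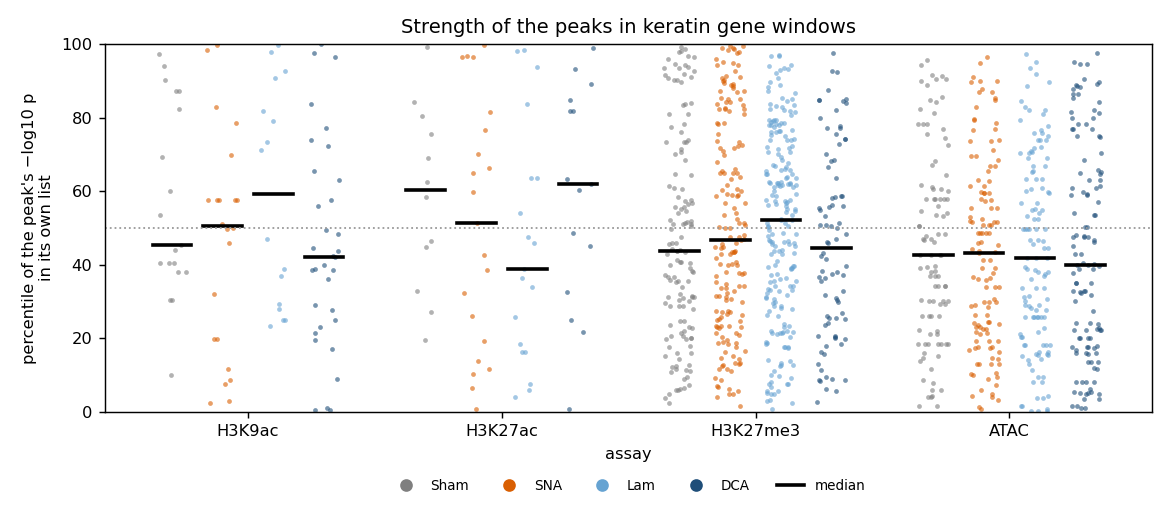
Percentile of the −log10 p of each peak in a keratin window within its own list (points, with the median as a bar; the dotted line is 50) for the 16 lists. ATAC medians lie between 40.0 and 43.3, while single acetylation peaks in each list reach above 96.

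Between surgeries, the keratin peak numbers were set beside the size of the whole lists. In 10 of 12 comparisons the share over the whole lists lay inside the interval of the keratin share, and both exceptions were H3K27me3, in DCA against Lam and in Lam against Sham. The acetylation intervals rest on few peaks and are wide, so holding the list share there does not show that the keratin numbers followed the lists. H3K27me3 windows held 135 distinct peaks in Sham and 172 in SNA, so SNA had 56.0% of the sum (interval 50.4 to 61.5) against 53.5% over the whole lists. Cover did not rise with the number, at 31.7% in Sham and 29.3% in SNA, and the median peak width was 1805 bp in Sham and 1254 bp in SNA. DCA held 84 peaks and Lam 213, a DCA share of 28.3% (23.5 to 33.7) against 36.9% over the whole lists, and there the cover was lower too. Lam against Sham, neither with an axotomy, gave 61.2% (56.0 to 66.2) against 55.6%. The number of peaks thus differed more between the control surgeries than between SNA and Sham. Keratin genes with more H3K27me3 window peaks in SNA than Sham numbered 30 (32.5% of all genes) and with fewer 12 (33.8%). In DCA against Lam 3 had more (10.3%) and 49 fewer (61.5%), and in Lam against Sham 37 had more (48.3%) and 5 fewer (21.3%). Limiting each H3K27me3 list to its 90011 strongest peaks raised the DCA share to 38.5%. Lists of equal size split evenly as wholes, so the keratin share of DCA still lay below that of the lists.

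H3K9ac peaks numbered 19 after Sham, 22 after SNA, 16 after Lam and 33 after DCA. The SNA share was 53.7% (38.7 to 67.9) against 59.7% of the lists, and the DCA share 67.3% (53.4 to 78.8) against 63.9%. With lists of equal size the DCA share fell to 46.7%, from 14 peaks in DCA and 16 in Lam, so the direction did not hold there. Genes with more H3K9ac peaks numbered 3 in SNA against Sham (38.9% of all genes) and 12 in DCA against Lam (47.6%), with 7 (11.4%) and 2 (8.63%) having fewer. In Lam against Sham 2 had more (25.1%) and 8 fewer (23.0%).

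H3K27ac peaks numbered 12, 21, 19 and 15. The SNA share was 63.6% (46.6 to 77.8) against 63.4% of the lists, and the DCA share 44.1% (28.9 to 60.5) against 40.9%. More H3K27ac peaks were found at 7 genes in SNA against Sham (43.9% of all genes), at 5 in DCA against Lam (12.1%) and at 5 in Lam against Sham (41.6%). Fewer were found at 3 (12.8%), 4 (38.9%) and 3 (11.1%) genes. All but 10 of the 53 genes had no H3K27ac peak in any list, so most had equal numbers of 0. Over all genes, 29.3% had none.

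ATAC peaks numbered 100, 123, 126 and 123, which gave an SNA share of 55.2% (48.6 to 61.5) against 53.2% of the lists and a DCA share of 49.4% (43.2 to 55.6) against 51.0%. More ATAC peaks were found at 29 genes in SNA against Sham (46.8% of all genes) and at 23 in DCA against Lam (35.1%), with fewer at 14 (24.1%) and 18 (34.7%). Lam against Sham gave 23 with more (41.4%) and 12 with fewer (29.4%). No Sham counterpart was found for 79 of the 123 SNA peaks, and no SNA counterpart for 57 of the 100 Sham peaks. These shares, 64.2% and 57.0%, were close to those over the whole lists, 59.6% and 53.8%. In DCA against Lam they were 61.8% of DCA and 62.7% of Lam peaks, against 57.9% and 55.6% of the lists. In Lam against Sham they were 73.0% of Lam peaks (interval 64.7 to 80.0) and 64.0% of Sham peaks, against 59.4% and 58.4%. The Lam share there lay above that of its list.

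Other gene groups were counted in the same way, without a test. Among 14 other intermediate filament genes, 7 to 9 had an H3K9ac window peak (63.4% to 69.8% of all genes) and all 14 an ATAC peak (83.6% to 85.0%). The neurofilament genes Nefl, Nefm and Nefh and the related Ina had no acetylation peak in any of the 8 lists. Over all genes, 25.9% had none. Vim had 4, 7, 3 and 2 H3K9ac peaks and Gfap 6, 4, 4 and 4. Of 10 sensory neuron markers only 1 or 2 had an acetylation peak near a gene end in each list, while 8 to 9 of 10 markers of satellite glia and Schwann cells had one for H3K9ac. The share over all genes was 49.1% to 59.3% for H3K9ac and 40.3% to 50.9% for H3K27ac. Neuron markers had H3K27me3 cover of 28.4%, 20.1%, 32.2% and 12.8%, and all 10 had an ATAC peak at an end. Being without an acetylation peak and with H3K27me3 in these lists was thus not limited to genes inactive in ganglia, and the part that the mix of cell types has in it was not tested.

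Other genes of epithelia were not all without acetylation. Of 14 epidermal differentiation and desmosome genes, 8 to 10 had an H3K9ac window peak (63.4% to 69.8% of all genes). For H3K27ac it was 6 to 8 (60.5% to 64.8%). Near gene ends their shares were lower than those of all genes. They were 21.4% to 42.9% against 49.1% to 59.3% for H3K9ac, and 14.3% to 21.4% against 40.3% to 50.9% for H3K27ac. Jup, plakoglobin of desmosomes and adherens junctions, had 4, 10, 5 and 11 H3K9ac peaks. Flg, filaggrin of the cornified layer, had none, nor had Ivl, Tgm3 and Casp14. Of all genes, 28.5% had no H3K9ac window peak in any list. Of 16 epithelial transcription factor genes 9 to 13 had an H3K9ac window peak (63.4% to 69.8% of all genes) and 3 to 9 one near a gene end (49.1% to 59.3%). Among 10 epithelial markers, Epcam and Cldn4 had no acetylation peak in any list, where 25.9% of all genes had none. Cdh1, E-cadherin, had the most H3K9ac window peaks of the 10, with 21 after Sham, 29 after SNA, 26 after Lam and 36 after DCA. Some of these genes are also used by other cells of a ganglion, and the cell of origin was not tested.

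Families with few acetylation peaks differed in the other assays. Krtap genes had H3K9ac window peaks in at most 1.79% of 56 genes, Olfr genes, for odorant receptors, in at most 2.61% of 1110 and the vomeronasal receptor genes in at most 0.85% of 353. Their ATAC windows were less often marked, at 66.1% to 73.2%, 39.1% to 46.0% and 21.8% to 29.5%, against 84.9% to 94.3% of the keratin genes. H3K27me3 in Sham covered 13.6% of Krtap, 7.33% of Olfr and 5.17% of vomeronasal windows. The Hox genes, developmental regulators and known Polycomb targets, had H3K27me3 cover of 45.2%, 38.0%, 52.7% and 20.7%, together with H3K9ac window peaks in 66.7% to 76.9% of 39 genes. The keratin cover thus lay between that of the Krtap and the Hox windows in all 4 lists, and the share of keratin genes with an H3K9ac peak lay between those of the same 2 families.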

How the data were processed

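Peak lists of H3K9ac, H3K27ac and H3K27me3 ChIP-seq and of ATAC-seq were used, 1 for each assay and surgery, each made by the authors from pooled replicates, per the labels. The build is mm10, per the submitters' processing notes; the aligner and the peak caller are not given in the sources used here. Deposited columns are a display score, which was not used, a fold enrichment (a linear ratio), and −log10 p and −log10 q of the authors' caller. These values were used only within a list. ATAC intervals repeated for several summits were collapsed to the highest −log10 p. Read depth is unknown.

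Genes came from the RefSeq table of GRCm38.p6. A peak counted when at least 1 bp lay in the window. Gene ends were used because the table gives no strand; promoter windows gave it for 36 keratin genes. Samples were grouped by their labels. SNA was compared with Sham and DCA with Lam, with Lam and Sham compared as background, by counts and Wilson intervals without a test. Named genes were those with an end peak in at least 2 lists of an assay, the 2 with most window peaks per assay, 14 keratins of known epithelia, and the strongest peaks and largest changes; the other genes come from fixed lists. Members, lists and rules were chosen with earlier results of these data known. Counting code was tested on simulated peaks. Python 3.11.15 and pandas 2.3.3 were used.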

Additional observations from a re-analysis of the deposited data

Results flagged for a closer look

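The injury lists of H3K27me3 moved in opposite directions over the keratin windows. SNA held 56% of the peaks of SNA and Sham together, and DCA held 28.3% of those of DCA and Lam. The intervals, 50.4% to 61.5% and 23.5% to 33.7%, lie on either side of an even split. The difference between the injuries was not tested, since each list pools its replicates. The whole lists moved the same ways, at 53.5% and 36.9%, and the covered share of the keratin windows was lower in the injury list in both comparisons.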

How the results depend on the processing

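No paired analysis was possible because each deposited list pools its replicates, and for the same reason no replicate could be left out. Windows of 5 kb on each side and a rule of at least 50% of the peak inside the window moved no result by more than its interval or 1.5 times. The same held for Krt78 ending at the start its promoter window gives, an alternative chosen after seeing the data. For the share of keratin peaks in the injury list, equal list sizes turned the H3K9ac share of DCA against Lam to 46.7% and moved the H3K27me3 share to 38.5%, and gene bodies alone gave 19.6% for the latter. At equal sizes the whole lists split evenly. A q of at most 0.05 left 0 H3K27me3 peaks outside Sham, so the shares of SNA and Lam against Sham became 0%, and none could be given for DCA against Lam.

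Genes with a window peak in the gene body alone fell to 8 in Sham and 9 in DCA for H3K9ac, 4 in Sham and 5 in DCA for H3K27ac and 20 in DCA for H3K27me3. With that q limit there were 6 for H3K9ac in Sham, and for H3K27me3 2 in Sham and 0 in SNA, Lam and DCA. With equal list sizes H3K9ac in DCA fell to 10 genes. Genes with an end peak in at least 1 list numbered 5 for H3K27ac within 2 kb of an end and 1 for H3K27me3 with that q limit. At the start site alone, over 36 genes, they numbered 2 for H3K9ac, 1 for H3K27ac, 34 for H3K27me3 and 26 for ATAC, where fewer genes were counted.

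With that q limit the chromosome 11 density was 3.86 peaks per Mb for H3K9ac and 1.93 for H3K27me3 in Sham, and H3K27me3 was 0 per Mb in every other list and cluster. Counts of keratin peaks without a counterpart in another list rose under a reciprocal overlap of 50%, as did the share over the whole list, which is given in brackets. For H3K9ac they went from 6 (22%) to 11 (55.6%) in Sham against SNA, from 3 (18.5%) to 12 (68.5%) in Lam against DCA and from 5 (40.8%) to 8 (66.2%) in Lam against Sham. For H3K27ac they went from 3 (42.6%) to 7 (69.7%) in Sham against SNA, from 3 (27.9%) to 13 (59.9%) in DCA against Lam, from 10 (53.4%) to 17 (72.3%) in Lam against DCA and from 3 (28.9%) to 7 (56.9%) in Sham against Lam. For H3K27me3 they went from 77 (70.5%) to 141 (92.1%) in SNA against Sham, from 49 (68.7%) to 103 (90.9%) in Sham against SNA, from 18 (61.6%) to 69 (90.1%) in DCA against Lam, from 89 (68.9%) to 174 (91.4%) in Lam against Sham and from 30 (64.2%) to 95 (89.3%) in Sham against Lam. The brackets refer to the whole list and not to the keratin peaks. With any overlap the H3K27me3 counts were 44.8%, 36.3%, 21.4%, 41.8% and 22.2% of the keratin peaks in that order, each below its bracket. A stricter overlap can only leave more peaks without a counterpart, and the cause of the other changes was not tested. Depth is unknown, so a window without a peak may hold signal that was not called.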
